A study of Xenopus laevis with 30 samples.

Results

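Gene expression in the midbrain of Xenopus laevis tadpoles was compared with that in the hindbrain at Nieuwkoop and Faber stage 46, in 6 of the 30 samples of a series. The series follows the midbrain through metamorphosis and samples other regions of the nervous system at stages 46 and 49. The 4 midbrain and hindbrain samples of stage 49 serve a separate comparison with the later stage. The members are the 3 stage 46 midbrain samples and the 3 stage 46 hindbrain samples, taken by their labels and not by any measured value. Total RNA of dissected brain regions was sequenced, so each sample is a mixture of all cells of the region. All 6 samples are of the same stage, from albino tadpoles of both sexes, and no treatment or altered gene is named for any of them. The midbrain of frogs includes the optic tectum, and the hindbrain samples include the rhombic lip, the edge of the dorsal hindbrain that borders the roof of the ventricle and gives rise to the granule cells of the cerebellum. The 3 samples of a region were described by the study as biological replicates, and the number of animals in each sample is not stated. A transcript level in such a sample depends both on how many cells express a gene and on how much RNA each cell holds, and these cannot be told apart here.

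The midbrain and the hindbrain of vertebrates meet at the isthmus, a boundary set early in development where the transcription factor Otx2, made in front of it, meets Gbx2, made behind it. Cells at the isthmus make Wnt1 and Fgf8, the signals of an organizer that patterns the tectum on one side and the cerebellum on the other, and the En and Pax2/5/8 factors are made across it. Behind the isthmus, the hindbrain is divided into segments called rhombomeres, where the Hox genes are switched on in an order that follows their order on the chromosome and that retinoic acid helps to set. The midbrain is known for the retinal input to its tectum and for its GABA and dopamine neurons. The hindbrain is known for cranial motor neurons, for serotonin and noradrenaline neurons, for glycine neurons and for long tracts to and from the spinal cord.

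The midbrain samples had 9402901 to 10884064 reads counted on genes, against 6660698, 9665558 and 3304181 reads in hindbrain replicates 1, 2 and 3. Hindbrain replicate 3 stood apart from the other 5 samples. With every sample thinned to 2203586 reads, between 28109 and 28895 genes had a count in the midbrain samples, against 28320, 28409 and 44842 genes in the hindbrain samples, the last of these being replicate 3. The 10801 genes without a single count in the midbrain samples took 0.0865%, 0.0557% and 1.57% of the reads of hindbrain replicates 1, 2 and 3. Replicate 3 of the stage 46 forebrain and spinal cord, with 1.64% and 1.25% of reads on these genes, was like hindbrain replicate 3 in this. A low level in hindbrain replicate 3 is therefore hard to read, and the main results that turn on this sample are given with and without it. Genes are named as in the count table, where .L and .S tell apart the long-chromosome and short-chromosome copies that this tetraploid frog has of many genes. Such copies can be nearly identical, and reads that fit both may have been split between them, so a value of 1 copy alone is uncertain.

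Of 25324 genes tested, 109 (0.430%) were called higher and 362 (1.43%) were called lower in midbrain than in hindbrain. A call needed a log2 fold change of more than 2 in either direction with an adjusted p below 0.05. The fold changes are midbrain over hindbrain, the test was edgeR's quasi-likelihood F test, and levels are in counts-per-million (CPM). The 3 midbrain values did not overlap the 3 hindbrain values in any of the 109 or 362 genes. They also did not overlap in 5482 of the 24648 genes tested at both stages 46 and 49. Genes that pass such a call tend to separate in this way, so the lack of overlap adds no support of its own. Genes with few counts were filtered out before the test. A gene near 0 in 1 region could therefore enter only through the other region, which fixed its direction. The size threshold took out many genes, since 458 (1.81%) were higher and 750 (2.96%) lower at an adjusted p below 0.05 alone. The median log2 fold change over all genes tested was -0.03. Without hindbrain replicate 3, 296 genes (1.16% of 25492) were called higher and 342 (1.34%) lower, and these took in 108 of the 109 and 307 of the 362. Another 188 genes were called higher only without it, and in 184 of them replicate 3 lay above both other hindbrain samples. Their median levels were 5.82 CPM in midbrain, against 0.21 CPM in hindbrain replicates 1 and 2 and 5.34 CPM in hindbrain replicate 3. Leaving out a midbrain sample also lowered the count of genes called lower, to between 207 and 235. For a single gene, exact permutation of 3 against 3 samples reaches p = 0.1 at best, so the p-values rest on the spread that edgeR shares across genes.

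**Figure D1:**
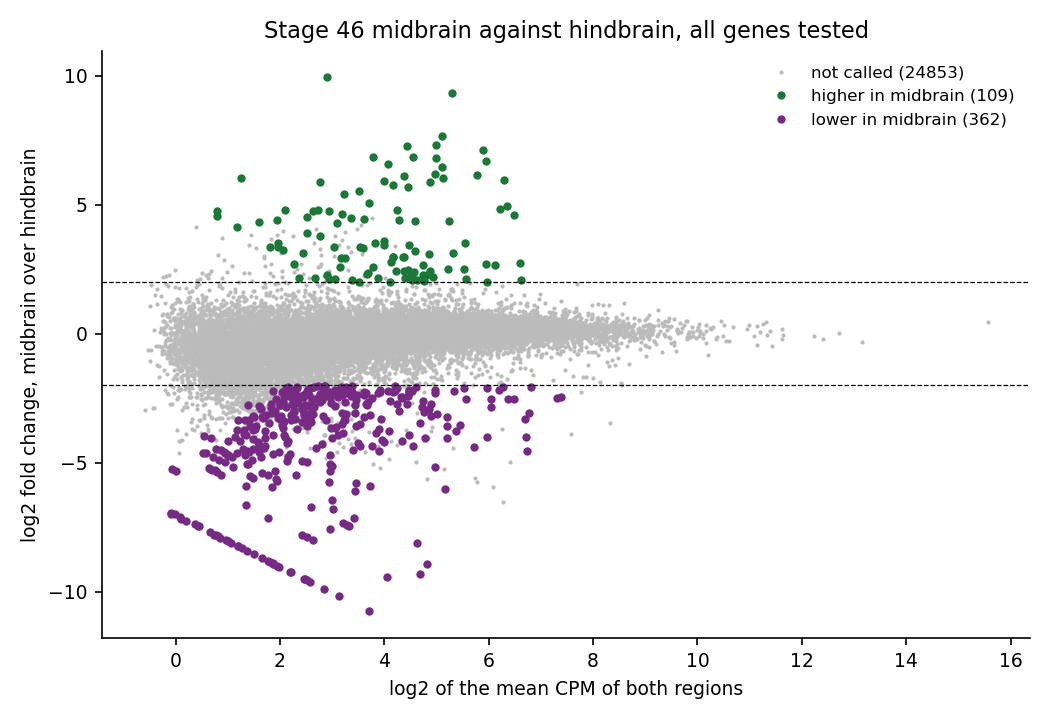
The log2 fold change of midbrain over hindbrain (y axis) is plotted against the log2 of the mean CPM of both regions (x axis), with 1 point per gene tested, coloured points for genes called and dashed lines at the size threshold of 2. There are 109 points above and 362 below, and the straight row of points at the lower left is made of genes without counts in midbrain, whose fitted fold change has no lower limit of its own.

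Most genes of the isthmus organizer passed the test in neither direction. Of 33 tested copies on a list of isthmus genes, 1 was called higher in midbrain and 3 lower, and 5 more were lower at an adjusted p below 0.05 with a difference under the size threshold. The median log2 fold change of the list was -0.57, and 0.430% and 1.43% of all genes tested were called higher and lower. On the midbrain side stood otx2.L, the factor that sets the front of the boundary. It had 89.1, 83.1 and 86.1 CPM in midbrain, against 5.63, 9.65 and 6.47 CPM in hindbrain, and the difference on the log2 scale was 3.53 ± 0.23 (SE), adjusted p = 8.26e-08. The 3 midbrain samples were close to each other and far above all 3 hindbrain samples. The other copy, otx2.S, had 24.2, 25.3 and 26.9 CPM in midbrain, against 0.313, 0 and 4.4997 CPM in hindbrain, where only hindbrain replicate 3 held more than a trace, and its log2 fold change of 4.51 did not pass the test with all 6 samples but did without that sample (7.49 without it, against an adjusted p of 0.1097 with it).

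On the hindbrain side stood pax8 and pax2, paired-box factors that are made at the isthmus and later in inhibitory neurons of the hindbrain and spinal cord. pax8.L had 0, 0 and 0.0947 CPM in midbrain, against 32.2, 34.5 and 32.1 CPM in hindbrain. The midbrain samples held 1 read of this gene between them, and the log2 fold change was -9.42 ± 0.48 (SE), adjusted p = 5.58e-09. pax8.S, listed in the table as LOC108712742, had 0.193, 0.324 and 0 CPM in midbrain, against 22.2, 13.3 and 12.1 CPM in hindbrain. pax2.L had 7.45, 6.48 and 6.25 CPM in midbrain, against 60.2, 60.01 and 52.3 CPM in hindbrain, a difference of -3.10 ± 0.20 (SE), adjusted p = 8.26e-08. All 3 genes had tight values within a region and no overlap between regions. The call of pax2.L is lost where all 12 stage 46 samples share one estimate of spread.

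Of the engrailed genes, which are made across the boundary and grade the tectum from front to back, both copies of en1 were lower in midbrain by less than the size threshold, and the copies of en2 did not pass the test. en1.S had 10.4, 10.8 and 14.02 CPM in midbrain, against 41.4, 40.8 and 24.7 CPM in hindbrain, a log2 fold change of -1.61 ± 0.24 (SE), adjusted p = 4.71e-04. en1.L had 23.1, 15.9 and 13.2 CPM in midbrain, against 49.7, 51.6 and 25.03 CPM in hindbrain, with hindbrain replicate 3 close to the highest midbrain sample and an adjusted p of 0.0115. For en2.S, at 23.3, 21.6 and 20.5 CPM in midbrain, against 27.2, 23.2 and 25.6 CPM in hindbrain, the difference was -0.22 ± 0.20 (SE), adjusted p = 0.6596, and the ranges overlapped. Both copies of lmx1b.1, a factor that keeps Wnt1 on at the isthmus, were lower in midbrain, with log2 fold changes of -1.12 ± 0.20 for the copy listed as LOC108698243 and -1.20 ± 0.23 for lmx1b.1.S (SE, adjusted p = 0.00211 and 0.00417). The fifth of these smaller differences was spry2.L, an inhibitor of Fgf signaling, with -1.19 ± 0.31 (SE), adjusted p = 0.0378. Across the alternative fits listed under processing, the adjusted p rose as high as 0.401 for en1.S, 0.422 for en1.L and 0.194 for spry2.L. It rose as high as 0.117 for the lmx1b.1 copy listed as LOC108698243 and 0.0522 for lmx1b.1.S.

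The signals themselves did not pass the test in either direction. wnt1.L had 7.74, 3.24 and 6.16 CPM in midbrain, against 5.63, 3.604 and 8.44 CPM in hindbrain, and its log2 fold change was -0.02 ± 0.49 (SE), adjusted p = 0.994. fgf8.L had 5.32, 7.67 and 5.97 CPM in midbrain, against 5.16, 8.48 and 12.1 CPM in hindbrain, a log2 fold change of -0.42 ± 0.40 (SE), adjusted p = 0.671. Both genes had few reads, and the values of the regions overlapped. A copy of gbx2, made behind the boundary, and pax5.L, made across it, were higher in hindbrain on average without passing the test. The log2 fold changes were -1.28 ± 0.36 (SE), adjusted p = 0.05699 (adjusted p = 0.0459 without hindbrain replicate 3) for gbx2.2.L and -0.81 ± 0.23 (SE), adjusted p = 0.0608 for pax5.L. gbx2.1.L, at 9.19, 13.5 and 8.72 CPM in midbrain, against 30.02, 11.2 and 14.6 CPM in hindbrain, had 1 high hindbrain sample and overlapped the midbrain range.

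**Figure D2:**
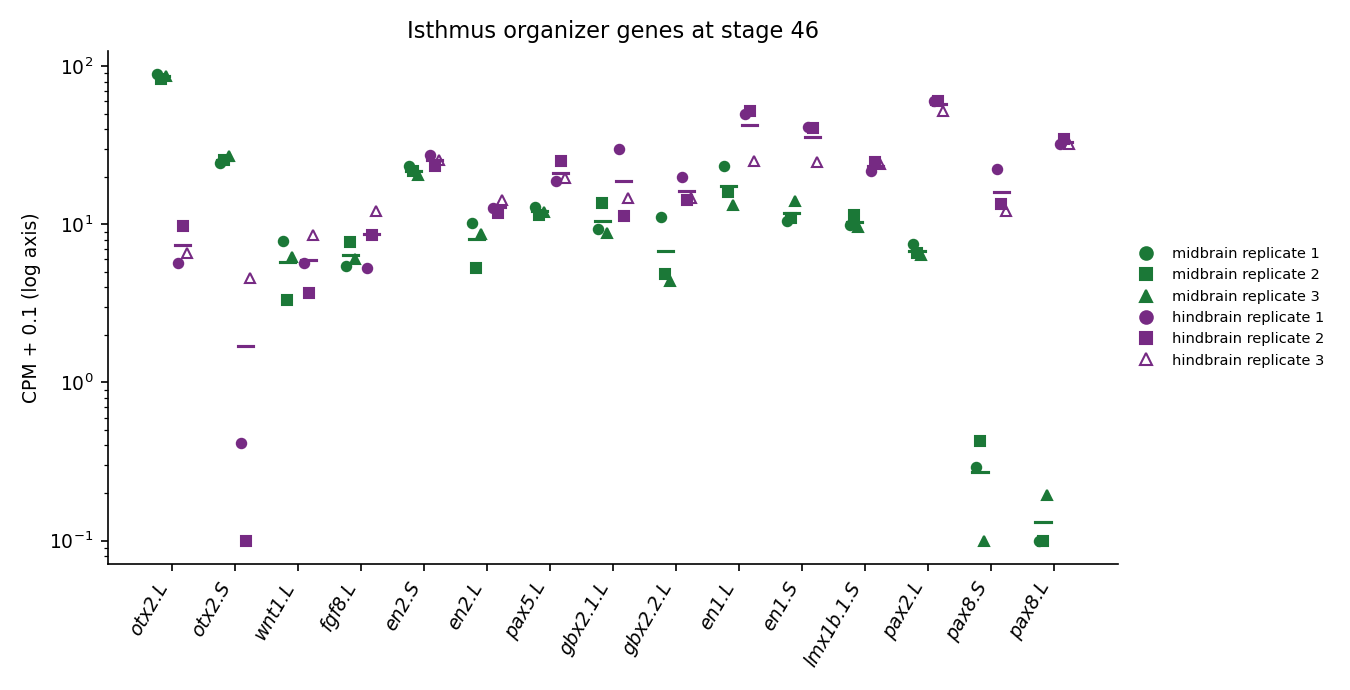
Levels of 15 isthmus genes in CPM plus 0.1 on a log axis, with 1 symbol per sample, midbrain at the left and hindbrain at the right of each gene and a bar at the mean of each region. The points of wnt1.L, fgf8.L and en2.S lie together, otx2.L is higher in all 3 midbrain samples, and pax2.L, pax8.S and pax8.L are higher in all 3 hindbrain samples.

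Transcription factors known from the midbrain were often higher in it. Of 32 tested copies on a list of midbrain factors, 13 were called higher and 2 lower, 20 and 3 passed the test at any size, and the median log2 fold change was 1.85. The shares over all genes tested were 0.430% and 1.43% called, and 1.81% and 2.96% at any size. tfap2d.L, an AP-2 factor known from the mouse midbrain, had 61.7, 74.98 and 80.6 CPM in midbrain, against 1.72, 3.92 and 5.06 CPM in hindbrain, a log2 fold change of 4.39 ± 0.29 (SE), adjusted p = 8.26e-08. Its short-chromosome copy, listed as LOC108717502, had 23.3, 21.1 and 26.1 CPM in midbrain, against 0, 1.696 and 1.41 CPM in hindbrain. Both copies were thus far higher in every midbrain sample than in any hindbrain sample. The Wnt pathway factor tcf7l2.L, which marks thalamus and dorsal midbrain in vertebrates, had 176, 179.6 and 159.7 CPM in midbrain, against 4.85, 5.09 and 12.7 CPM in hindbrain (log2 fold change 4.62 ± 0.31, adjusted p = 1.54e-07). Its relative lef1.L had 48.3, 29.9 and 31.8 CPM in midbrain, against 5.94, 2.01 and 6.75 CPM in hindbrain (log2 fold change 2.999 ± 0.37, adjusted p = 1.61e-04). The Wnt target genes sp5.L and sp5.S, on none of the lists, were higher in midbrain as well, by 2.49 ± 0.25 and 3.52 ± 0.41 (log2, SE).

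Factors that specify the GABA neurons of the midbrain were higher in midbrain as well. helt.L, needed in the mouse for the GABA fate in midbrain, had 43.5, 45.2 and 46.7 CPM in midbrain, against 2.35, 0.318 and 5.34 CPM in hindbrain, a difference of 4.38 ± 0.61 (SE), adjusted p = 0.00565. tal2.L, which acts after it, had 190.5, 185 and 130.4 CPM in midbrain, against 25.6, 31.2 and 18.3 CPM in hindbrain (log2 fold change 2.73 ± 0.24, adjusted p = 1.71e-06). gata3.S and sox14.L, which are also made in hindbrain GABA and other neurons, were higher by 1.32 ± 0.21 and 1.69 ± 0.18 (log2, SE), under the size threshold. The adjusted p of gata3.S rose as high as 0.285 across the alternative fits. Among the factors of tectal projection neurons, pou4f1.L had 97.5, 71.9 and 61.95 CPM in midbrain, against 16.1, 16.8 and 19.97 CPM in hindbrain (log2 fold change 2.14 ± 0.22, adjusted p = 8.72e-06), and pou4f2.S had 53.5, 49.8 and 51.8 CPM in midbrain, against 4.85, 4.35 and 10.4 CPM in hindbrain (log2 fold change 3.08 ± 0.28, adjusted p = 2.71e-06). barhl2.L and barhl2.S differed by 2.69 ± 0.26 and 2.30 ± 0.23 (log2, SE). In all of these genes the lowest midbrain sample lay above the highest hindbrain sample. Other factors called higher were otx1.L (2.37 ± 0.29) and prdm12.L (2.19 ± 0.22, both log2 with SE), while the calls of both tfap2d copies and of otx1.L are lost in the fit with all 12 stage 46 samples and that of helt.L without midbrain replicate 2 or 3.

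The exceptions on the list were bhlhe22.S and meis2.S, called lower in midbrain with log2 fold changes of -2.37 ± 0.60 and -2.23 ± 0.24 (SE), of which the first is lost with limma and when any midbrain sample or hindbrain replicate 1 is left out. dmbx1, a factor of the early midbrain in mouse and zebrafish, was called higher in neither copy at this stage. dmbx1.L had 38.9, 40.1 and 40.9 CPM in midbrain, against 29.6, 43.9 and 39.4 CPM in hindbrain, and the ranges overlapped. dmbx1.S was lower in midbrain, with 20.3, 15.99 and 21.3 CPM in midbrain, against 54.4, 61.1 and 50.9 CPM in hindbrain (log2 fold change -1.53 ± 0.19, adjusted p = 8.24e-05). Across the alternative fits listed under processing, its adjusted p rose as high as 0.403.

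**Figure D3:**
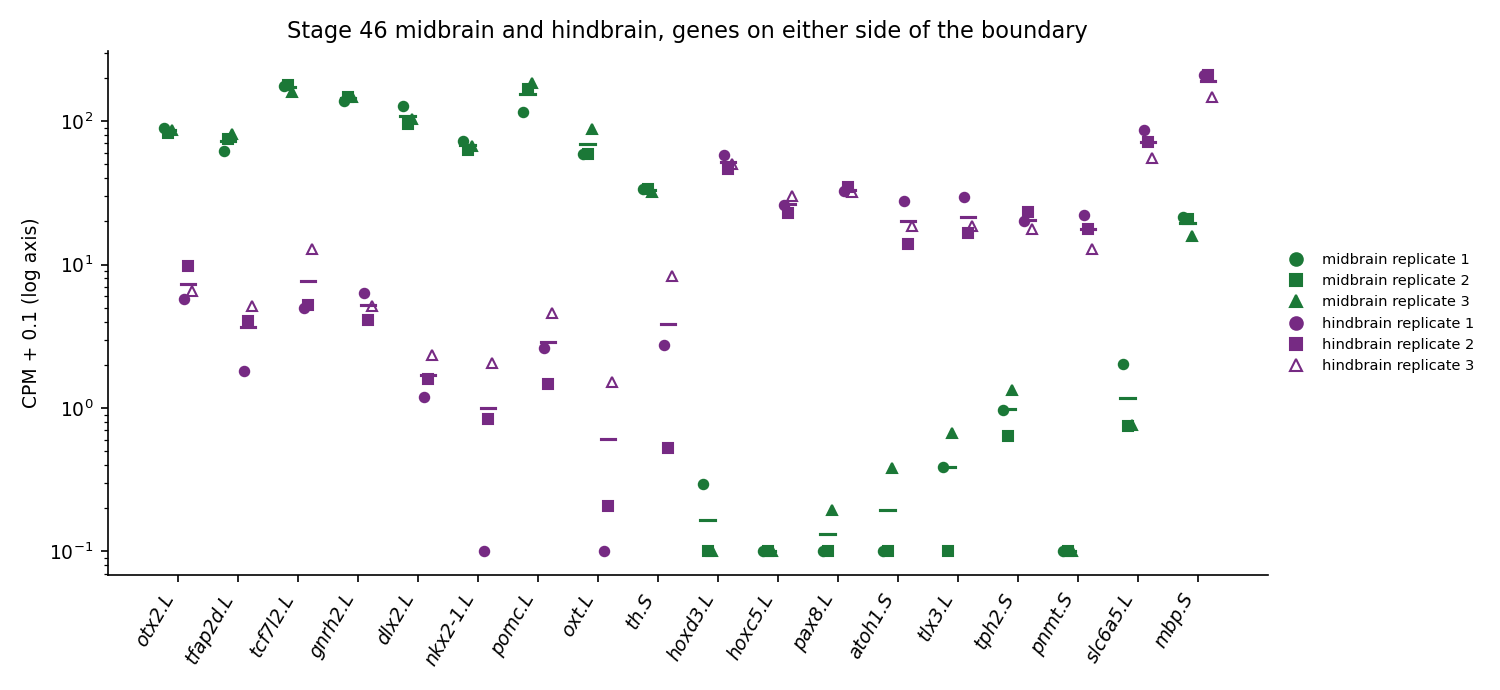
Levels of selected genes in CPM plus 0.1 on a log axis, with 1 symbol per sample, midbrain at the left and hindbrain at the right of each gene. The genes called higher in midbrain and the genes called lower separate without overlap, and the open symbols of hindbrain replicate 3 lie above the other hindbrain samples in several genes that are low in hindbrain.

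Neuropeptides were prominent among the genes called higher. Of 49 tested copies on a list of neuropeptides, 13 were called higher in midbrain and 4 lower, against 0.430% and 1.43% of all genes tested. Some of them, such as pomc.S and oxt.L, are counted again on the hypothalamic or pituitary list below, so those counts are not separate. pomc, the precursor of melanotropin and corticotropin, had 115, 166 and 183 CPM in midbrain, against 2.502, 1.38 and 4.4997 CPM in hindbrain for pomc.L. For pomc.S the values were 56.1, 76.3 and 103 CPM in midbrain, against 0, 0 and 0.562 CPM in hindbrain. The log2 fold changes were 5.96 ± 0.34 (SE), adjusted p = 4.66e-08 and 9.36 ± 0.53 (SE), adjusted p = 7.71e-08, and pomc.S was at least 414-fold higher in midbrain than a floor of 3 counts over hindbrain replicates 1 and 2, which had none. oxt.L (LOC108696251), the mesotocin gene of the oxytocin family, had 58.98, 58.6 and 88.4 CPM in midbrain, against 0, 0.106 and 1.41 CPM in hindbrain (log2 fold change 7.69 ± 0.53, adjusted p = 2.70e-06). avp.S, the vasotocin gene, had 24.4, 21.9 and 35.05 CPM in midbrain, against 0, 0 and 1.12 CPM in hindbrain (log2 fold change 6.87 ± 0.69, adjusted p = 6.29e-05). gal.2.L, a galanin gene, had 62.5, 46.6 and 64.2 CPM in midbrain, against 0, 0.954 and 2.53 CPM in hindbrain (log2 fold change 5.90 ± 0.52, adjusted p = 6.38e-05). pmch.S, which encodes melanin-concentrating hormone, had 50.8, 57.2 and 78.2 CPM in midbrain, against 1.56, 0.636 and 0 CPM in hindbrain (log2 fold change 6.22 ± 0.41, adjusted p = 1.54e-07). In all 6 genes the lowest midbrain sample was far above the highest hindbrain sample.

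A neuropeptide of the midbrain itself showed the same direction. gnrh2.L encodes the form of gonadotropin-releasing hormone that vertebrates make in the midbrain tegmentum, and it had 137, 147 and 148 CPM in midbrain, against 6.25, 4.03 and 5.06 CPM in hindbrain, a log2 fold change of 4.83 ± 0.24 (SE), adjusted p = 3.86e-09. Both regions were even among their samples. pdyn.S, the prodynorphin gene, had 87.2, 68.7 and 79.005 CPM in midbrain, against 11.1, 11.3 and 19.97 CPM in hindbrain (log2 fold change 2.51 ± 0.24, adjusted p = 4.15e-06). Peptides called lower in midbrain were grp.L, grp.S, nppc.S and uts2b.L. grp.L, the gastrin-releasing peptide gene, had 2.51, 4.54 and 2.46 CPM in midbrain, against 51.4, 58.7 and 46.1 CPM in hindbrain (log2 fold change -4.05 ± 0.27, adjusted p = 8.26e-08), and grp.S had 0, 0 and 1.23 CPM in midbrain, against 24.7, 28.9 and 24.7 CPM in hindbrain (log2 fold change -5.89 ± 0.83, adjusted p = 0.00577), a call that is lost with all 12 stage 46 samples and with a replicate block. uts2b.L, a urotensin gene, had no count in midbrain, against 5.63, 6.15 and 10.1 CPM in hindbrain, and was at least 73.4-fold higher in hindbrain than a floor of 3 counts over the midbrain samples.

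Factors that mark hypothalamus, and hormones of the pituitary, were in the midbrain samples. nkx2-1.L, which specifies the hypothalamus, had 72.5, 63.1 and 66.97 CPM in midbrain, against 0, 0.742 and 1.97 CPM in hindbrain (log2 fold change 6.49 ± 0.44, adjusted p = 6.09e-07). six3.L had 36.2, 42.8 and 29.7 CPM in midbrain, against 0, 1.48 and 2.81 CPM in hindbrain (log2 fold change 4.82 ± 0.58, adjusted p = 0.00107), and six6.L had 19.7, 18.9 and 27.8 CPM in midbrain, against 0, 0 and 2.25 CPM in hindbrain (log2 fold change 5.53 ± 0.99, adjusted p = 0.02295). gh1.S, which encodes growth hormone, had 34.2, 35.01 and 35.05 CPM in midbrain, against 0, 0 and 3.09 CPM in hindbrain (log2 fold change 5.76 ± 1.01, adjusted p = 0.0356), and prl.2.S, a prolactin gene (LOC108697263), had 90.2, 125 and 149.9 CPM in midbrain, against 1.88, 0 and 2.53 CPM in hindbrain (log2 fold change 6.70 ± 0.69, adjusted p = 0.00186). A list of hypothalamic genes was written after the values were seen. Of its 45 tested copies, 21 were called higher (32 without hindbrain replicate 3), against 0.430% of all genes tested. Because the members were chosen with the values known, this count and the sums below carry no weight of their own. The 2 copies of otp (LOC108717966 and LOC108707273), a factor of hypothalamic peptide neurons that the hindbrain also makes, were lower by under the size threshold. Summed over the 41 rows of that list, the midbrain samples held 872, 962 and 1152 CPM, against 142, 108 and 209.8 CPM in the hindbrain samples. On a list of pituitary genes, also written afterwards and so without weight in the same way, 4 of 10 were called higher (8 without hindbrain replicate 3). Its sums were 217, 288 and 338 CPM in midbrain, against 6.25, 5.83 and 37.97 CPM in hindbrain. In the stage 46 samples of the subcortical forebrain, the sums of medians on these lists were 382 and 7.98 CPM, against 1023 and 302 CPM in midbrain. The calls of six6.L and gh1.S are lost with DESeq2 and when any midbrain sample is left out. That of gh1.S is also lost with all 12 stage 46 samples, and those of gh1.S and prl.2.S with a replicate block. The midbrain samples thus carried transcripts of the hypothalamic and pituitary genes named above. Whether hypothalamic or pituitary tissue was in the dissected pieces, and its part in other genes called higher, was not tested.

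Several dlx genes, made in the ventral forebrain, were higher in midbrain. On a list of dlx genes and their partners, written after the values were seen, 6 of 10 tested copies were called higher (10 without hindbrain replicate 3). On a list of telencephalon genes, also written afterwards, 1 of 10 was (6 without hindbrain replicate 3). Over all genes tested, 0.430% were called higher (1.16% without that sample). The members of both lists were chosen with the values known, so these counts carry no weight of their own. dlx2.L, a homeobox factor of forebrain GABA neurons, had 127, 94.9 and 103 CPM in midbrain, against 1.09, 1.48 and 2.25 CPM in hindbrain (log2 fold change 6.14 ± 0.28, adjusted p = 3.86e-09), and dlx5.L had 15.9, 14.8 and 17.8 CPM in midbrain, against 0.156, 0.5301 and 2.25 CPM in hindbrain (log2 fold change 4.32 ± 0.57, adjusted p = 1.74e-04). dlx2.S, dlx5.S, dlx6.L and dlx6.S held between 14.4 and 42.7 CPM in each midbrain sample and 0 to 0.53 CPM in hindbrain replicates 1 and 2, but 2.81 to 5.91 CPM in hindbrain replicate 3. Of these 4, dlx2.S was called with all 6 samples, a call that is lost with DESeq2, with a replicate block and when any midbrain sample is left out. The others did not pass with all 6 samples and were called without hindbrain replicate 3. arx.L and arx.S, partners of the dlx genes, differed by 2.29 ± 0.23 and 2.1004 ± 0.26 (log2, SE). Of 29 tested floor plate and roof plate copies, arx.L, arx.S and nkx2-1.L were called higher (5 copies without hindbrain replicate 3) and gdf7.L (LOC108717203), a signal of the roof plate, lower. nkx2-2.L, made along the ventral brain, had 82.97, 68.6 and 63.9 CPM in midbrain, against 10.2, 6.47 and 7.87 CPM in hindbrain (log2 fold change 3.14 ± 0.23, adjusted p = 2.06e-07).

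Dopamine genes were called in larger number without hindbrain replicate 3. Tyrosine hydroxylase makes the precursor of dopamine and noradrenaline. th.L, listed as LOC108713461, had 38.1, 32.5 and 37.4 CPM in midbrain, against 2.19, 3.498 and 9.56 CPM in hindbrain (log2 fold change 2.97 ± 0.38, adjusted p = 3.27e-04). th.S had 33.7, 33.3 and 31.8 CPM in midbrain, against 2.66, 0.424 and 8.16 CPM in hindbrain, and its log2 fold change was 3.41 with an adjusted p of 0.0773, against 4.56 and 3.06e-06 without replicate 3. The dopamine transporter slc6a3.S had 25.6, 16.5 and 20.1 CPM in midbrain, against 0, 0 and 9.56 CPM in hindbrain, and it was called without replicate 3 (adjusted p = 3.00e-07) and not with it (adjusted p = 0.467). pitx3.L and pitx3.S, which midbrain dopamine neurons of mammals need, had 6.05 to 6.92 and 4.55 to 6.29 CPM in midbrain, against at most 0.469 CPM in hindbrain replicates 1 and 2 and 1.97 CPM in replicate 3 for each copy, and neither was called with all 6 samples, while both were called without that sample, and pitx3.L also with limma and pitx3.S with DESeq2. On the list of monoamine genes, 1 of 23 was called higher and 3 lower with all samples, and 7 higher and 3 lower without replicate 3. The shares over all genes tested were 0.430% and 1.43% with all samples, and 1.16% and 1.34% without replicate 3.

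A few genes of photoreceptors and the pineal organ were called higher in midbrain. asmt.S, the last enzyme of melatonin synthesis, had 11.9, 20.2 and 12.3 CPM in midbrain, against 0.625, 0.5301 and 3.94 CPM in hindbrain (log2 fold change 3.37 ± 0.62, adjusted p = 0.00494), and rcvrn.2.L, a recoverin gene, had 23.1, 66.99 and 38.9 CPM in midbrain, against 2.97, 4.13 and 7.59 CPM in hindbrain (log2 fold change 3.22 ± 0.45, adjusted p = 0.00218). Of 25 tested copies on the list of photoreceptor and pineal genes, 2 were called higher and 0 lower (edgeR; 0 were lower at an unadjusted p below 0.05, by DESeq2 and by limma), and 17 were called higher without hindbrain replicate 3. The shares called higher over all genes tested were 0.430%, and 1.16% without that sample. Of 42 rows of the list named by symbol, 20 were at 0 in hindbrain replicates 1 and 2. Such rows could pass the count filter only with the midbrain samples, so their direction carries no weight of its own. The list summed to 153, 275 and 183 CPM in midbrain, against 43.3, 36.4 and 206 CPM in hindbrain, where the last value is replicate 3. rpe65.L and rgr.L, which handle retinal in eye and pineal, had 27.5, 38.1 and 29.6 CPM and 17.4, 24.7 and 21.2 CPM in midbrain, against 2.66, 3.604 and 6.47 CPM and 0.156, 2.76 and 3.37 CPM in hindbrain. The midbrain samples differed among themselves in these genes, replicate 2 being the highest in all 4, and the call of asmt.S is lost in the fit with all 12 stage 46 samples and that of rcvrn.2.L with limma. sspo.L, the glycoprotein that the subcommissural organ at the roof of the caudal forebrain and midbrain secretes, had 75.5, 88.8 and 53.2 CPM in midbrain, against 0.469, 1.48 and 111 CPM in hindbrain. Hindbrain replicate 3 was the highest of all 6 samples, and the log2 fold change was 1.05 with it and 6.08 without it.

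Summed Hox transcripts were far lower in midbrain than in hindbrain. Of 62 rows of hox genes in the table, 20 were tested, all of paralogue groups 1 to 5. Of these, 19 were called lower in midbrain and 0 higher (edgeR; 0 were higher at an unadjusted p below 0.05, by DESeq2 and by limma). Summed over all rows, the midbrain samples held 4.35, 2.70 and 1.99 CPM, against 390.1, 282 and 485 CPM in the hindbrain samples. The tested copies had to reach the count filter through the hindbrain samples, so their number, direction and median fold change carry no weight of their own. The sums over all 62 rows do not depend on that filter. In the fit with all 12 stage 46 samples the calls of hoxa3.S, hoxa5.L, hoxb1.S (LOC108702519), hoxb3.L, hoxb4.L and hoxd1.S are lost. In 11 of the 20 copies no midbrain sample had a read. The largest of these was hoxc5.L, with 25.96, 22.7 and 30.1 CPM in hindbrain, at least 264-fold higher than a floor of 3 counts over the midbrain samples. hoxd3.L had 0.193, 0 and 0 CPM in midbrain, against 58.2, 46.3 and 49.8 CPM in hindbrain (log2 fold change -9.30 ± 0.44, adjusted p = 3.86e-09), and hoxb3.S had 0.0967, 0.216 and 0 CPM in midbrain, against 77.9, 38.9 and 51.2 CPM in hindbrain (log2 fold change -8.93 ± 0.48, adjusted p = 1.95e-08). The median log2 fold change of the tested copies was -8.25, or -6.76 with the copies without midbrain reads set at their bound.

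The level in hindbrain differed between the paralogue groups. Group 3, whose genes begin in the middle rhombomeres, summed to 238, 174.5 and 221 CPM in the hindbrain samples. Group 1 summed to 12.7, 9.75 and 23.3 CPM and group 2 to 33.8, 28.7 and 36.0 CPM. Group 4 summed to 57.4, 35.7 and 48.4 CPM and group 5 to 41.0, 29.7 and 52.0 CPM. These sums are in CPM and not per length, so they order the groups by reads. Groups 6 to 13 held between 0 and 2.54 CPM each in hindbrain replicates 1 and 2, but between 7.03 and 19.7 CPM in replicate 3. In the spinal cord, where these groups are normally on, the sums of medians of groups 6 to 13 were 26.5 to 261 CPM. No group exceeded 2.22 CPM in any midbrain sample.

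**Figure D4:**
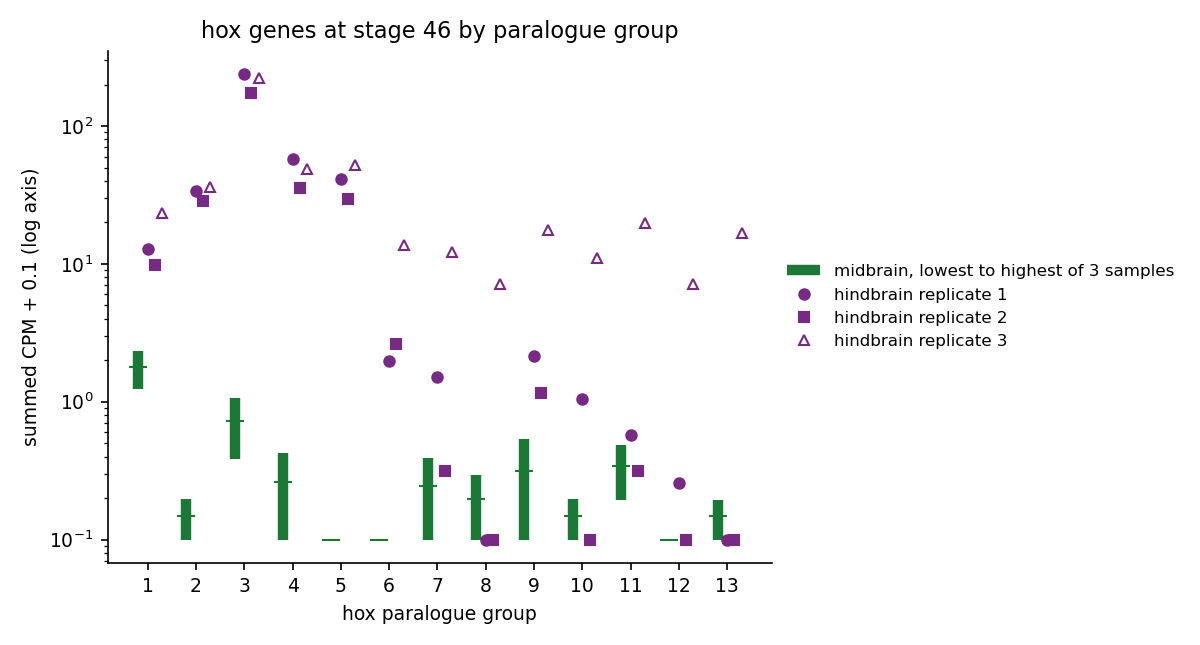
Summed CPM plus 0.1 of the hox genes on a log axis (y axis) by paralogue group (x axis), with a bar from the lowest to the highest of the 3 midbrain samples and 1 symbol per hindbrain sample. Groups 1 to 5 are far above midbrain in all 3 hindbrain samples, and in groups 6 to 13 hindbrain replicate 3, at 7.03 to 19.7 CPM, lies above both other hindbrain samples.

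The partners of the Hox proteins and the genes of retinoic acid signaling followed in part. meis1 and meis3 encode cofactors that Hox proteins bind in the hindbrain. meis3.L had 22.7, 24.1 and 22.4 CPM in midbrain, against 192, 235 and 160.0 CPM in hindbrain (log2 fold change -3.09 ± 0.21, adjusted p = 1.23e-07), and meis1.L had 47.9, 56.8 and 39.8 CPM in midbrain, against 299, 289 and 224 CPM in hindbrain (log2 fold change -2.49 ± 0.22, adjusted p = 1.73e-06). The other copies, meis3.S and meis1.S, differed by -2.85 ± 0.24 and -2.04 ± 0.22 (log2, SE). egr2.L, the Krox20 gene of rhombomeres 3 and 5, had 0, 0.5402 and 0.758 CPM in midbrain, against 5.16, 4.77 and 10.7 CPM in hindbrain (log2 fold change -3.93 ± 0.90, adjusted p = 0.01602), a call that is lost with all 12 stage 46 samples and when any midbrain sample is left out. These 5 were the genes called lower among 31 tested copies of segmentation genes, of which 10 were lower at an adjusted p below 0.05 and 0 higher (edgeR; 5 were higher at an unadjusted p below 0.05, 3 by DESeq2 and 2 by limma). For all genes tested the shares were 1.43% called lower, and 2.96% lower and 1.81% higher at an adjusted p below 0.05. crabp1.S, a protein that binds retinoic acid in the cell, had 6.58, 6.27 and 12.98 CPM in midbrain, against 237, 223 and 152 CPM in hindbrain (log2 fold change -4.56 ± 0.30, adjusted p = 1.45e-07), and crabp2.L had 5.22, 2.701 and 7.105 CPM in midbrain, against 41.3, 35.3 and 21.7 CPM in hindbrain (log2 fold change -2.71 ± 0.33, adjusted p = 8.91e-05). On the list of retinoic acid genes, 3 of 31 were called lower, the third being crabp2.S (LOC108700362), 2 were called higher without hindbrain replicate 3, 7 were lower and 4 higher at an adjusted p below 0.05, and the median log2 fold change was -0.13, close to that of all genes.

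Some genes of the rhombic lip and of the cerebellum were called lower in midbrain, and other genes of the same list were higher. atoh1, the bHLH factor that defines the rhombic lip, is listed under LOC numbers. atoh1.S (LOC108706750) had 0, 0 and 0.284 CPM in midbrain, against 27.5, 13.8 and 18.6 CPM in hindbrain (log2 fold change -7.45 ± 0.65, adjusted p = 2.08e-06), and atoh1.L (LOC108710940) had 0.0967, 0.216 and 0.474 CPM in midbrain, against 9.07, 9.01 and 7.59 CPM in hindbrain (log2 fold change -4.94 ± 0.69, adjusted p = 2.46e-04). olig3.S, which marks the dorsal progenitors next to it, had 3.67, 1.62 and 2.84 CPM in midbrain, against 55.5, 37.5 and 32.3 CPM in hindbrain (log2 fold change -3.93 ± 0.31, adjusted p = 6.04e-07). skor2.L and rora.L, both needed by Purkinje cells of the mouse, had 7.06, 5.51 and 5.12 CPM in midbrain, against 74.4, 46.5 and 40.8 CPM in hindbrain (log2 fold change -3.19 ± 0.26, adjusted p = 8.57e-07) and 4.93, 4.86 and 3.13 CPM in midbrain, against 51.9, 54.4 and 35.4 CPM in hindbrain (log2 fold change -3.46 ± 0.26, adjusted p = 2.89e-07). calb1.L, a calcium-binding protein of Purkinje and other neurons, differed by -2.17 ± 0.21 (SE), adjusted p = 5.74e-06. Of 53 tested copies of cerebellar and rhombic lip genes, 9 were called lower and 2 higher in midbrain (9 and 4 without hindbrain replicate 3), 10 were lower and 12 higher at an adjusted p below 0.05, and the median log2 fold change was 0.07. One of those called higher was the calretinin gene calb2.L, at 35.9, 34.8 and 41.1 CPM in midbrain, against 6.57, 9.12 and 8.72 CPM in hindbrain. For all genes tested the shares called were 1.43% lower and 0.430% higher.

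On a list of maturing granule cell markers written after the values were seen, 7 of 15 copies were called lower (5 without hindbrain replicate 3), and 2 were higher at an adjusted p below 0.05. Over all genes tested, 1.43% were called lower. The members were chosen with the values known, so the count carries no weight of its own. The list summed to 411, 411 and 368 CPM in midbrain, against 428, 352 and 342 CPM in hindbrain, so the regions overlapped in it. gabra6.S and gabrd.L encode the GABA receptor subunits of granule cells. Neither had a read in midbrain, against 3.28, 2.54 and 6.75 CPM and 3.28, 10.4 and 6.75 CPM in hindbrain. They were at least 42.1-fold and 68.4-fold higher in hindbrain than the floor, and both calls, like that of fat2.S, are lost in the fit with all 12 stage 46 samples. neurod2.S had 5.51, 5.94 and 5.59 CPM in midbrain, against 53.6, 32.02 and 27.6 CPM in hindbrain (log2 fold change -2.74 ± 0.27, adjusted p = 7.26e-06). fat2.S, a cadherin of granule cell axons, had 0.2901, 0 and 0.758 CPM in midbrain, against 8.44, 9.01 and 27.8 CPM in hindbrain, with replicate 3 the highest.

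Transcription factors of hindbrain neuron classes were often lower in midbrain. Of 49 tested copies, 19 were called lower and 1 higher (20 and 3 without hindbrain replicate 3), 26 were lower and 4 higher at an adjusted p below 0.05, and the median log2 fold change was -1.75. The shares over all genes tested were 1.43% called lower and 0.430% higher. lbx1 marks the dorsal neurons of the hindbrain and spinal cord. lbx1.L had 0.2901, 0 and 0 CPM in midbrain, against 22.4, 18.2 and 14.9 CPM in hindbrain (log2 fold change -7.34 ± 0.64, adjusted p = 1.78e-06), and lbx1.S (LOC108697428) had 0.387, 0 and 0 CPM in midbrain, against 20.95, 16.1 and 11.2 CPM in hindbrain (log2 fold change -6.78 ± 0.71, adjusted p = 1.62e-05). tlx3.L and tlx1.L, which set the glutamate fate in dorsal neurons, had 0.2901, 0 and 0.568 CPM in midbrain, against 29.4, 16.4 and 18.6 CPM in hindbrain (log2 fold change -6.11 ± 0.56, adjusted p = 3.45e-06) and 0, 0 and 0.0947 CPM in midbrain, against 19.1, 10.1 and 7.87 CPM in hindbrain (log2 fold change -8.01 ± 0.80, adjusted p = 7.72e-06). In each of these genes the midbrain samples held a trace at most of the hindbrain level. foxd3.L, of V1 interneurons and of neural crest, had no read in midbrain, against 3.75, 8.48 and 10.97 CPM in hindbrain. Like lbx1, tlx3.L and tlx1.L above, it could pass the count filter only through the hindbrain samples. The direction of these genes therefore carries no weight of its own. irx4.L, an Iroquois factor, had 2.901, 2.92 and 2.56 CPM in midbrain, against 35.7, 16.01 and 32.3 CPM in hindbrain (log2 fold change -3.31 ± 0.33, adjusted p = 7.58e-06). The call of irx4.L is lost in the fit with all 12 stage 46 samples.

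Glycine genes were lower in midbrain in part. The glycine transporter slc6a5 defines glycine neurons. slc6a5.L (LOC108713447) had 1.93, 0.648 and 0.663 CPM in midbrain, against 86.003, 71.03 and 55.4 CPM in hindbrain (log2 fold change -6.01 ± 0.34, adjusted p = 3.58e-08), and slc6a5.S had 6.87, 8.64 and 7.86 CPM in midbrain, against 49.9, 59.9 and 44.997 CPM in hindbrain (log2 fold change -2.73 ± 0.21, adjusted p = 5.21e-07). The 2 copies thus differed in how low they were in midbrain, and the call of slc6a5.S is lost in the fit with all 12 stage 46 samples. The glycine receptor subunit glra1.S had 7.06, 10.05 and 6.54 CPM in midbrain, against 40.8, 41.9 and 26.998 CPM in hindbrain (log2 fold change -2.23 ± 0.25, adjusted p = 2.85e-05). Of 12 tested copies of glycine genes, 3 were called lower and 6 were lower at an adjusted p below 0.05, with 0 higher (edgeR; 0 were higher at an unadjusted p below 0.05, by DESeq2 and by limma). For all genes tested the shares were 1.43% called lower and 2.96% lower at an adjusted p below 0.05.

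Acetylcholine genes of motor neurons followed. chat.S (LOC108703349), which makes acetylcholine, had 2.804, 1.73 and 0.568 CPM in midbrain, against 17.7, 17.1 and 17.2 CPM in hindbrain (log2 fold change -3.34 ± 0.45, adjusted p = 1.78e-04), and slc18a3.S, which loads it into vesicles, had 8.12, 6.37 and 4.17 CPM in midbrain, against 37.997, 37.7 and 24.7 CPM in hindbrain (log2 fold change -2.44 ± 0.28, adjusted p = 3.02e-05). chat.L (LOC108696296) differed by -1.94 ± 0.19 (SE), adjusted p = 6.96e-06, just short of the size threshold. Of 28 tested copies of cholinergic genes, 4 were called lower, which also include slc18a3.L and a butyrylcholinesterase gene (LOC108717029), and 10 were lower at an adjusted p below 0.05, with 0 higher (edgeR; 1 was higher at an unadjusted p below 0.05, 1 by DESeq2 and 1 by limma). For all genes tested the shares were 1.43% called lower and 2.96% lower at an adjusted p below 0.05.

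Genes that make serotonin, noradrenaline and adrenaline were called lower in midbrain. tph2.S, which makes serotonin, had 0.8703, 0.5402 and 1.23 CPM in midbrain, against 19.9, 23.1 and 17.7 CPM in hindbrain (log2 fold change -4.49 ± 0.38, adjusted p = 1.42e-06). dbh.S, which makes noradrenaline, had 0.193, 0 and 0.189 CPM in midbrain, against 7.97, 6.25 and 8.44 CPM in hindbrain (log2 fold change -5.69 ± 0.84, adjusted p = 4.06e-04). pnmt.S (LOC108702360), which turns noradrenaline into adrenaline, had no read in midbrain, against 22.2, 17.7 and 12.7 CPM in hindbrain, at least 176-fold higher than the floor. In each of the 3 genes all hindbrain samples lay far above all midbrain samples. The other dbh copy, dbh.L (LOC108698178), had 0, 0.216 and 0.284 CPM in midbrain, against 1.25, 1.38 and 5.91 CPM in hindbrain. It was not called with all samples (adjusted p = 0.0807) or without hindbrain replicate 3 (adjusted p = 0.194).

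No gene on the lists of GABA, glutamate and cell cycle genes was called, against 0.430% called higher and 1.43% lower over all genes tested. The GABA synthesis gene gad1.1.L had 279, 282 and 286 CPM in midbrain, against 289.6, 315 and 185 CPM in hindbrain (log2 fold change 0.10 ± 0.22, adjusted p = 0.879), and the vesicular GABA transporter slc32a1.S had 252, 211 and 228 CPM in midbrain, against 237, 249 and 162 CPM in hindbrain. The ranges overlapped in both. Of 9 tested copies of GABA genes 0 were called (edgeR; 2 were higher and 0 lower at an unadjusted p below 0.05, and 1 was higher by DESeq2 and 1 by limma). Of 10 tested copies of glutamate genes 0 were called and slc1a3.S alone was lower at an adjusted p below 0.05 (edgeR; 3 higher and 4 lower at an unadjusted p below 0.05, 2 and 2 by DESeq2 and 1 and 2 by limma). The vesicular glutamate transporter slc17a7.L had 146, 141 and 142 CPM in midbrain, against 107, 89.6 and 70.3 CPM in hindbrain (log2 fold change 0.68 ± 0.20, adjusted p = 0.0634). Of 69 tested copies of cell cycle genes 0 passed the test (edgeR; 8 higher and 1 lower at an unadjusted p below 0.05, 3 and 0 by DESeq2 and 1 and 0 by limma), and their median log2 fold change was 0.23. top2a.L, for DNA untangling in dividing cells, had 203, 200.3 and 245 CPM in midbrain, against 173, 151 and 131 CPM in hindbrain. A p above the threshold does not show that the regions are alike in these genes.

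Of the genes of radial glia, axon guidance and early neurons, those called with all 6 samples were lower in midbrain. The shares over all genes tested were 0.430% called higher and 1.43% called lower. At an adjusted p below 0.05 alone they were 1.81% higher and 2.96% lower. Of 41 tested copies of radial glia genes, 8 were higher and 2 lower at an adjusted p below 0.05, and the one copy past the size threshold, hes3.S (LOC108697686), was lower. Of 68 tested copies of axon guidance genes, 8 were higher and 6 lower at an adjusted p below 0.05, and those called were ntn3.S and sema3a.L, both lower. ntn3.S, a netrin gene, had 8.896, 3.67 and 5.97 CPM in midbrain, against 33.8, 32.3 and 35.997 CPM in hindbrain (log2 fold change -2.45 ± 0.28, adjusted p = 3.25e-05), and sema3a.L, a repellent of growing axons, had 9.86, 16.5 and 16.5 CPM in midbrain, against 69.7, 82.6 and 46.4 CPM in hindbrain (log2 fold change -2.22 ± 0.25, adjusted p = 3.04e-05). efna2.L, an ephrin that grades the tectum for retinal axons, had 80.5, 84.1 and 75.7 CPM in midbrain, against 19.7, 24.4 and 16.6 CPM in hindbrain (log2 fold change 1.97 ± 0.20, adjusted p = 8.66e-06), just under the size threshold. Of 36 tested copies of proneural and immature neuron genes, 3 were called lower, neurod2.L (LOC108701977), neurod2.S and atoh7.L, the last at 0.193, 0 and 0.568 CPM in midbrain, against 8.76, 3.82 and 8.44 CPM in hindbrain and a call that is lost with all 12 stage 46 samples. Without hindbrain replicate 3, called higher were 2 copies on the radial glia list, 1 on the axon guidance list and 1 on the list of proneural and immature neuron genes.

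Many myelin genes were lower in midbrain. mbp.S, a main protein of central myelin, had 21.2, 20.7 and 15.7 CPM in midbrain, against 210.5, 211 and 147 CPM in hindbrain (log2 fold change -3.30 ± 0.23, adjusted p = 1.23e-07), and mag.L (LOC108696944), a myelin protein that touches the axon, had 0.0967, 0.324 and 1.23 CPM in midbrain, against 13.9, 12.7 and 10.4 CPM in hindbrain (log2 fold change -4.44 ± 0.64, adjusted p = 3.23e-04). Of 28 tested copies on the list of oligodendrocytes and myelin, 10 were called lower and 1 higher. These stand beside 1.43% and 0.430% of all genes tested, and the median log2 fold change of the list was -1.50. The 1 called higher was nkx2-2.L, given above, which is also a factor of the ventral brain. The list summed to 242, 233 and 204 CPM in midbrain, against 671, 689.6 and 559.7 CPM in hindbrain, without overlap. The neurofilament gene nefm.S had 22.6, 25.9 and 24.9 CPM in midbrain, against 119, 193 and 111 CPM in hindbrain (log2 fold change -2.53 ± 0.23, adjusted p = 2.93e-06), and sncg.L, a synuclein of projection and sensory neurons, had 34.8, 24.4 and 20.9 CPM in midbrain, against 180.1, 129 and 147 CPM in hindbrain (log2 fold change -2.51 ± 0.23, adjusted p = 2.93e-06). prph.L, peripherin, differed by -1.23 ± 0.20 (SE), adjusted p = 0.00121, which rose as high as 0.0753 across the alternative fits.

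Markers of other tissues also differed between the dissected regions. The counts that follow stand beside 1.43% called lower in midbrain and 0.430% called higher over all genes tested. Of 20 tested copies on the skeletal muscle list, 6 were called lower in midbrain and 0 higher (edgeR; 0 were higher at an unadjusted p below 0.05, by DESeq2 and by limma), and the list summed to 39.5, 71.5 and 59.4 CPM in midbrain, against 165, 514 and 392 CPM in hindbrain. Of the 33 rows on this list 6 were at 0 in midbrain, among them myod1.L, myog.L and myf5.L, which switch on the muscle fate. In hindbrain replicates 1 and 2 together, 5 rows of the list were at 0. atp2a1.L, the calcium pump of fast muscle, had 1.26, 0.864 and 1.52 CPM in midbrain, against 9.69, 51.2 and 25.03 CPM in hindbrain. Its call is lost with limma and when any midbrain sample is left out. A row with the same RefSeq name, LOC108704734, was not counted on the list. It was called lower, with 1.45, 1.84 and 2.37 CPM in midbrain, against 14.1, 42.7 and 23.6 CPM in hindbrain (log2 fold change -3.83 ± 0.40, adjusted p = 2.02e-05). The muscle creatine kinase gene ckm.L had 0.774, 6.81 and 6.35 CPM in midbrain, against 24.2, 114 and 29.8 CPM in hindbrain. ckm.L was not called with all 6 samples, and was called in 2 of 12 alternative fits. Hindbrain replicate 2 was the highest in each of these rows. The part of muscle RNA in other genes called lower was not tested. Of 27 tested copies of cranial ganglion and Schwann cell genes, 4 were called lower, among them foxd3.L, foxd3.S and sox10.L, and pou4f1.L was called higher, with sums of 828 to 897 CPM in midbrain, against 1040.3 to 1239 CPM in hindbrain. Of 32 tested copies of meninges and fibroblast genes 0 were called, and col3a1.L (LOC108701482) and col3a1.S were lower at an adjusted p below 0.05 (edgeR; 11 lower and 0 higher at an unadjusted p below 0.05, 5 lower by DESeq2 and 2 by limma), with sums of 229 to 289.9 CPM in midbrain, against 319 to 741 CPM in hindbrain. Of 13 ear copies, otog.S and sox10.L were called lower, of 18 cartilage and bone copies, hapln1.L, and of 16 choroid plexus copies, kl.S, where the calls of otog.S and kl.S are lost without hindbrain replicate 3 and that of sox10.L with all 12 stage 46 samples and without midbrain replicate 1 or 2 or hindbrain replicate 2. For lens and microglia genes, the sums were 2.65 to 4.83 CPM and 11.7 to 17.7 CPM in midbrain, against 1.72 and 4.03 CPM and 19.70 and 19.72 CPM in hindbrain replicates 1 and 2, and 47.2 and 101 CPM in hindbrain replicate 3.

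**Figure D5:**
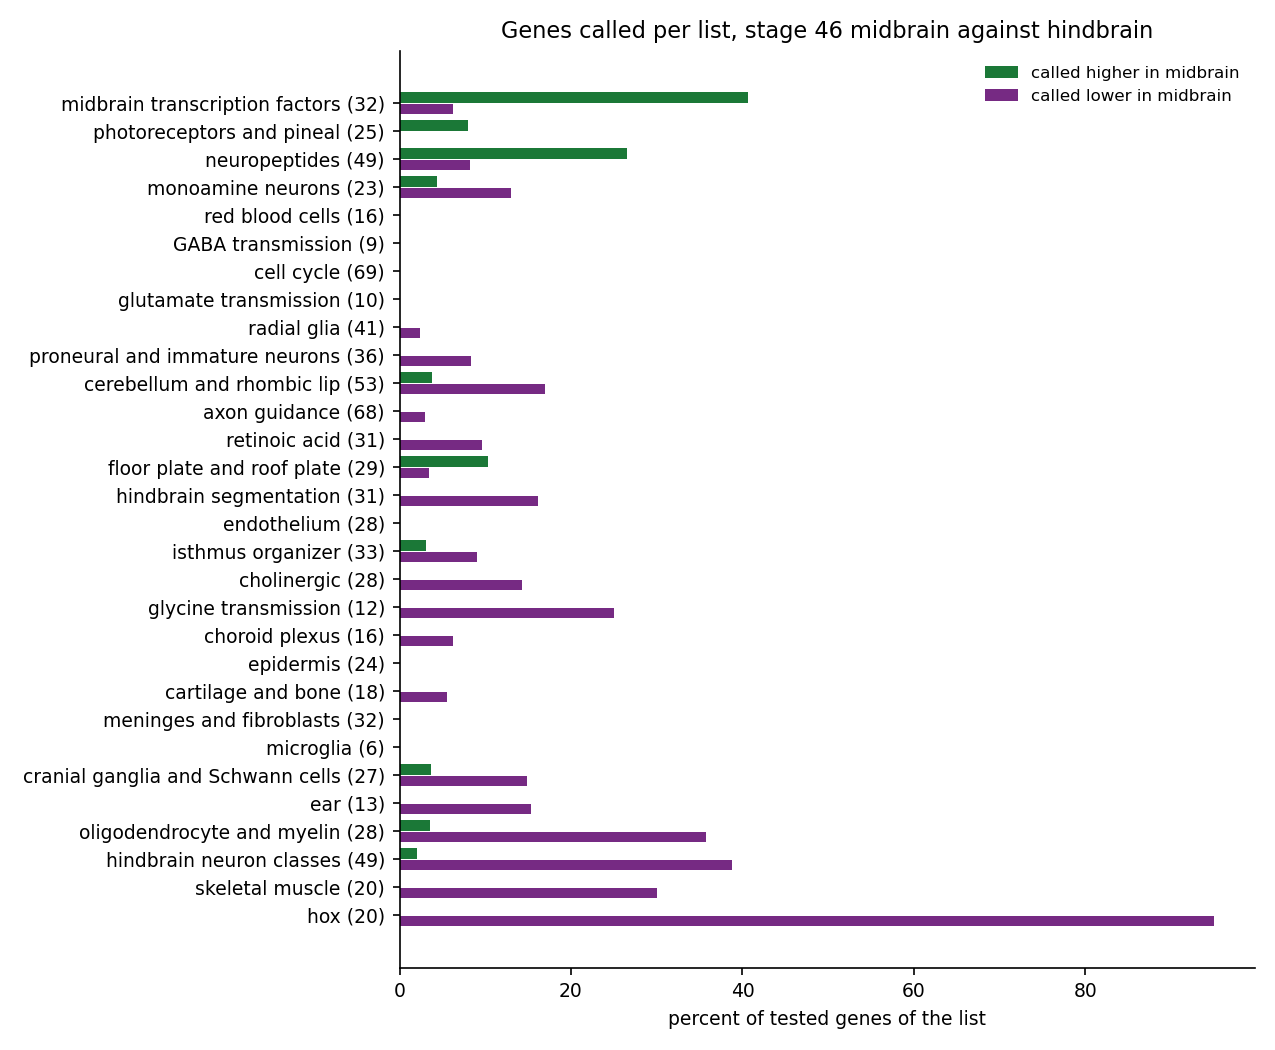
Percent of the tested genes of each list (x axis, the number tested in brackets) that were called higher in midbrain (upper bar of each pair) or lower (lower bar), with the lists ordered by their median log2 fold change. Lists written after the values were seen are left out. Midbrain transcription factors (13 of 32) and neuropeptides (13 of 49) have the longest bars for genes called higher, and hox (19 of 20), hindbrain neuron classes (19 of 49) and myelin genes (10 of 28) the longest for genes called lower. The tested hox copies passed the count filter through the hindbrain samples, so the length of their bar carries no weight. In other lists, copies near 0 in 1 region likewise entered only through the other region. Over all genes tested, 0.430% were called higher and 1.43% lower.

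The genes called in either direction were set beside the other regions of stage 46. Of the 109 genes higher in midbrain, 85 had their highest median of the 4 regions in midbrain, and in 22 the median of the subcortical forebrain was above that of midbrain. Of the 362 genes lower in midbrain, 146 had their highest median in hindbrain, and in 205 the spinal cord median was above that of hindbrain. In 212 of the 362 the forebrain median was above that of midbrain. The same counts were not made over all genes tested, so they are not read as a trait of the genes called. pax8.L had medians of 0 CPM in midbrain, 32.9 CPM in hindbrain and 20.98 CPM in spinal cord, whereas atoh1.S had 0, 16.4 and 1.83 CPM. On the other side, gnrh2.L had a median of 153 CPM in midbrain, 4.48 CPM in hindbrain and 0.464 CPM in forebrain, and tcf7l2.L had 185, 5.28 and 6.03 CPM.

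The .L and .S copies of a gene mostly moved together. In 37 pairs with both copies tested, at least 1 copy was called higher in midbrain, both were called in 17, and both copies had the same direction in 35. In 57 pairs with a copy called lower, both were called in 27, and all 57 had 1 direction. Over all 4862 pairs tested, 68.1% had 1 direction. An unequal pair was mab21l2, a factor of tectum, eye and other tissues. mab21l2.L had 125, 122 and 108 CPM in midbrain, against 482, 348 and 341 CPM in hindbrain (log2 fold change -1.72 ± 0.21, adjusted p = 6.80e-05), and mab21l2.S had 12.96, 15.3 and 8.72 CPM in midbrain, against 254, 167 and 169 CPM in hindbrain (log2 fold change -3.996 ± 0.26, adjusted p = 8.26e-08).

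At stage 49 there were 2 midbrain and 2 hindbrain samples, which the stage 46 comparison does not use. Of 34413 genes tested, 10 (0.0291%) were called higher and 1 (0.00291%) lower in midbrain. Those higher included pomc.L, pomc.S, oxt.L, oxt.S, gal.2.L, pmch.S, gh1.S, gh1-like.L and LOC108695906, and the gene lower was nkx6-2.L. pomc.L had 718 and 465 CPM in the stage 49 midbrain samples, against 6.005 and 3.45 CPM in the stage 49 hindbrain samples, and pmch.S had 55.5 and 47.4 CPM in the stage 49 midbrain samples, against 0.429 and 1.15 CPM in the stage 49 hindbrain samples. Of the genes called at stage 46 and tested at stage 49, 103 of 106 higher genes (97.2%) and 351 of 357 lower genes (98.3%) had the same direction at stage 49, against 68.7% of all 24648 genes tested at both stages. Their median log2 fold changes were 1.84 at stage 49 and 3.43 at stage 46 for the higher genes, and -1.32 and -3.43 for the lower genes. All but 1 of the stage 49 samples had many reads on silent genes: the genes with no count in stage 46 midbrain took 0.158% and 2.03% of the reads of the midbrain samples and 2.32% and 3.05% of those of the hindbrain samples. Such reads, more frequent in hindbrain, can by themselves make a gene that is near 0 in midbrain come out lower there. Their part in the 351 of 357 was not tested. The 68.7% is over genes of all levels, so it is not a matched comparison. Hox genes summed to 26.3 and 251 CPM in the stage 49 midbrain samples, against 547 and 489 CPM in the stage 49 hindbrain samples, and midbrain replicate 2 had the 251 CPM. Without that midbrain sample 124 genes were called higher and 9749 lower, in a fit with 1 midbrain sample whose spread is assumed to be that of the 2 hindbrain samples.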

How the data were processed

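Total RNA was amplified with the Ovation V2 kit and sequenced as single 100-base reads on a HiSeq2000, and the counting tools in the submitters' processing notes are STAR 2.5.2a and HTSeq 0.11.1, with DESeq2 1.22.2 for their own tests. The deposited table holds raw counts per gene, made by the authors on the X. laevis genome of Xenbase, for 49109 genes. The use of strand and of reads that map to several places is not given in the sources used here. Its columns for the stage 46 and 49 samples named in the report were used, and its 10 columns of midbrain at other stages were not. The deposited normalized tables were not used.

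Counts were fitted in edgeR 4.0.16 (R 4.3.3) with the 6 samples alone, filterByExpr (count minimum 10, total minimum 15), TMM scaling, the quasi-likelihood F test with robust dispersions and p-values adjusted by Benjamini-Hochberg across the whole set of tested genes. The SE of a log2 fold change is its size divided by the square root of F. CPM are after TMM scaling over the same samples, except the medians over regions, which are over the 12 stage 46 samples. A fold against a group without counts uses a floor of 3 counts over that group, which covers counting error only. Tested on simulated counts with 200 genes changed by 3 on the log2 scale, this recovered 95.5% of them and called 11 unchanged genes. The simulation gave no sample the high background of hindbrain replicate 3. Its recovery therefore does not cover genes whose call turns on that sample. Stage 49 (2 against 2) and the difference between stages (10 samples) were fitted in the same way.

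Alternatives were DESeq2 1.42.0, limma 3.58.1 (voom with quality weights), other scaling, no filter, all 12 stage 46 samples, a replicate block, a size threshold of 1, thinned counts and each sample left out. Counts per list join copies named by symbol with copies named only by LOC number, matched by NCBI gene number to RefSeq names (assembly Xenopus_laevis_v10.1, used for names alone). Of 175 LOC genes called, 163 matched and 78 had a symbol, 14 of them higher and 64 lower.

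The genes named in the text are, in each direction, the 12 with the largest change and the 8 with the smallest p among those called with a symbol, at least 5 CPM and no overlap, all isthmus genes tested, up to 6 called genes per list and direction, and the highest markers of other tissues. Some genes that this rule names are not reported here. Others, among them all genes named by LOC number, were chosen after their values were seen. So were the genes with no call, apart from isthmus genes listed by symbol and the highest markers of other tissues. The members and lists were chosen with earlier results of these data known. No coordinates or sequences are given.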

Additional observations from a re-analysis of the deposited data

Results flagged for a closer look

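The midbrain-hindbrain difference of grp.L, the gastrin-releasing peptide gene, was not the same at stages 46 and 49. At stage 46 it had 2.51, 4.54 and 2.46 CPM in midbrain, against 51.4, 58.7 and 46.1 CPM in hindbrain. At stage 49 it had 13.9 and 17.6 CPM in the stage 49 midbrain samples, against 21.02 and 16.5 CPM in the stage 49 hindbrain samples. On the log2 scale these are -4.05 (stage 46) and -0.25 (stage 49), a difference of -3.79 (edgeR's test of the interaction, adjusted p = 0.0106, lower in 3 of 3 midbrain samples at stage 46). It was the 1 gene of 40271 tested that passed, against 65 by DESeq2 and 134 without hindbrain replicate 3 of stage 46. Between 0.158% and 3.05% of reads of the stage 49 samples lay on genes without counts in stage 46 midbrain, and the part of this in the difference was not tested.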

How the results depend on the processing

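No called gene among the 149 named and called changed direction under any alternative, and 53 lost the call under at least 1 of them, 4 of them without hindbrain replicate 3. Of the named genes not called, 13 were called under at least 1 alternative, 11 of them without hindbrain replicate 3. The main counts at stage 46 were 109 higher and 362 lower. Lower genes numbered 574 with DESeq2, 914 with DESeq2 and no filter, 768 with edgeR and no filter, and 189 with all 12 stage 46 samples in one fit. A size threshold of 1 gave 277 higher and 640 lower. Leaving out 1 sample gave 80 to 296 higher and 207 to 535 lower. At stage 49 (10 higher, 1 lower) the counts were 32 and 16 with DESeq2, 17 and 2 with relative log expression scaling, and 36 and 13 without the filter, and leaving out 1 sample gave 7 to 124 higher and 2 to 9749 lower. Genes that differed between the stages (1) numbered 65 with DESeq2 and 134 without hindbrain replicate 3. The cause of these shifts was not tested.

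Deviations of same-numbered midbrain and hindbrain samples from their region means were weakly correlated (r across genes 0.07, 0.01 and 0.02). For samples of different numbers, r lay between -0.04 and 0.03. Deviations from a mean of 3 samples cannot decide whether the numbers pair the samples, and the main fit left them unpaired. With a replicate block, 128 genes were higher and 388 lower at stage 46, and 34 and 16 at stage 49. Of the named genes, 7 lost the call under the block and 3 gained it.

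Genes that changed sign had log2 fold changes between -1.04 (il17rd.S) and 1.07 (cryba2.S) under the alternatives and were called in none of these fits. With all 12 samples, dusp6.S was at 0.0017 and wnt1.L at 0.088, wnt1.L was at 0.10 with limma, and dusp6.L was at 0.016 with the block. With counts thinned, spry4.L (LOC108710922) was at -0.055, dusp6.L at 0.094, dusp6.S at 0.27, en2.S at 0.088 and wnt1.L at 0.029. With 1 sample left out, log2 fold changes ran from -0.39 to 0.13 for col2a1.L, -0.60 to 0.17 for coro1a.S, -0.068 to 1.07 for cryba2.S, -0.037 to 0.26 for dmbx1.L, -0.37 to 0.50 for dusp6.L, -0.43 to 0.11 for dusp6.S, -0.097 to 0.28 for gad1.1.L, -0.79 to 0.080 for il17rd.S, -0.24 to 0.19 for pcna.L, -0.081 to 0.24 for slc32a1.S, -0.35 to 0.21 for spry1.S, -0.15 to 0.42 for spry4.L and -0.28 to 0.32 for wnt1.L.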

Other observations

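Among genes of no list, several of the most even differences were lower in midbrain. slc30a3.L (LOC108716077), a zinc transporter of synaptic vesicles, had 0.967, 1.08 and 2.94 CPM in midbrain, against 52.1, 61.2 and 70.03 CPM in hindbrain (log2 fold change -5.17 ± 0.33, adjusted p = 8.97e-08). lcat.L, an enzyme that esterifies cholesterol in lipoproteins, had 4.74, 4.43 and 7.86 CPM in midbrain, against 80.4, 85.98 and 66.1 CPM in hindbrain (log2 fold change -3.77 ± 0.25, adjusted p = 8.26e-08). lgals9.L, a galectin gene, had 2.901, 5.62 and 4.36 CPM in midbrain, against 70.99, 81.2 and 55.7 CPM in hindbrain (log2 fold change -4.02 ± 0.26, adjusted p = 7.71e-08). On the other side, kcnmb3.S, a subunit of calcium-activated potassium channels, had 40.1, 53.7 and 44.9 CPM in midbrain, against 0, 0 and 1.97 CPM in hindbrain (log2 fold change 6.87 ± 0.76, adjusted p = 0.00136). rbp4l.L and rbp4l.S, retinol-binding protein genes, had 23.8, 62.1 and 43.01 CPM and 42.9, 91.4 and 55.5 CPM in midbrain, against 0, 0.212 and 0.844 CPM and 0, 0 and 1.97 CPM in hindbrain, with midbrain replicate 2 the highest as in the photoreceptor and pineal genes. The call of kcnmb3.S is lost without midbrain replicate 2, that of rbp4l.S without midbrain replicate 3, and that of rbp4l.L with limma. Those of kcnmb3.S and rbp4l.S are also lost with a replicate block. Of the genes called, 30 of 109 higher genes and 172 of 362 lower genes had no informative symbol in the table.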
